A study of Mus musculus with 6 samples.

Results

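The RNAs described here, 10 in number, are made from the mitochondrial genome. They were counted in cultured, cardiomyocyte-enriched cells of newborn mice, controls and mice with the glucocorticoid receptor gene deleted in cardiomyocytes. The 10 RNAs were 8 messenger RNAs, mt-Nd1, mt-Nd2, mt-Nd3, mt-Nd4, mt-Nd5, mt-Nd6, mt-Cytb and mt-Co1, and both mitochondrial ribosomal RNAs, mt-Rnr1 and mt-Rnr2. The 10 genes were found by matching the Ensembl identifiers of the count files to their symbols in GENCODE release M21 on GRCm38, and they are 10 of 52550 genes in the files. All 10 had enough counts in enough libraries to be tested. The mitochondrial genome carries 37 annotated genes in all, so 5 other messenger RNAs and 22 transfer RNAs are described only beside them.

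The study compared 3 libraries of GR-cKO cardiomyocytes, in which the glucocorticoid receptor gene had been deleted in cardiomyocytes, with 3 libraries of cardiomyocytes of the genotype given as ctrl, here called control. All hearts were taken on postnatal day 1, cells were enriched for cardiomyocytes by magnetic sorting, cultured for 48 hours with serum and then kept for 24 hours without it, and RNA was read with a 3′ tag method (QuantSeq FWD), which primes on runs of A. The treatment label reads ctrl in both groups. The sources used here do not give the strain, the Cre driver, the alleles of the controls or whether a library pools several hearts. The libraries are called biological replicates with no mention of separate animals or cultures, so a p-value here reflects only how these 6 libraries spread, and part of that spread may be technical.

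Libraries held 19371508 to 22583596 gene counts. Levels are given in CPM, a gene's count relative to the gene counts of its library, adjusted by edgeR's TMM factors. Nr3c1, which encodes the receptor, stood at 46.2, 42.8 and 44.1 CPM in GR-cKO libraries and at 68.2, 73.9 and 72.4 CPM in control libraries. The deleted exon is not named, and a 3′ tag outside it need not report the deletion. The non-coding RNA Xist, made from the inactive X chromosome, had 0, 2 and 0 counts in GR-cKO libraries and 6103, 5794 and 5507 counts in control libraries, so genotype and sex cannot be told apart in any result below. None of 13 cardiomyocyte markers was at 0, and their summed level was 48268 to 50941 CPM in GR-cKO libraries and 38055 to 39988 CPM in control libraries.

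Mitochondrial DNA is a small circle that is read from both strands into long precursor RNAs, which are cut at the transfer RNAs to release messenger and ribosomal RNAs. Most of the mature messenger RNAs then receive a short poly(A) tail, and for several of them the tail completes the stop codon. The proteins they encode are the membrane cores of respiratory complexes I, III and IV and of ATP synthase, which supply most of the ATP of a beating heart cell. The ribosomal RNAs form the small and large subunits of the ribosome inside mitochondria.

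An RNA whose tail begins at the annotated 3′ end would be primed next to the bases shown here. Where the counted reads start was not tested. The annotated messenger ends are those of the coding sequence, and where the tail of each member begins was not tested. The last 40 bases follow, on the strand of the gene, from the GENCODE transcript sequences on GRCm38. Capitals mark the annotated stop codon, or the letters of it that lie within the annotated gene. The ribosomal RNAs have none.

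mt-Rnr1: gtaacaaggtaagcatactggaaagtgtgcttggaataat
mt-Rnr2: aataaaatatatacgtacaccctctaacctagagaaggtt
mt-Nd1: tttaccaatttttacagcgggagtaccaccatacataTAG
mt-Nd2: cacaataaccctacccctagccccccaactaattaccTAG
mt-Co1: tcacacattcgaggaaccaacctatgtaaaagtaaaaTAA
mt-Nd3: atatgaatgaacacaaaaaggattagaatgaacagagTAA
mt-Nd4: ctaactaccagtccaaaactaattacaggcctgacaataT
mt-Nd5: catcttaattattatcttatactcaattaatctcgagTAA
mt-Nd6: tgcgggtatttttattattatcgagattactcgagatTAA
mt-Cytb: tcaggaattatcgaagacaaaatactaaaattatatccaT

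Of the 8 messenger RNAs, mt-Nd4 and mt-Cytb are annotated to end in a single T, which a tail of A turns into a stop codon. The last 2 bases of mt-Nd1 and of mt-Nd2 overlap the transfer RNAs mt-Ti and mt-Tw on the same strand. A cut at the start of these transfer RNAs would leave a single T there too, and where the cuts lie was not tested. The gene mt-Nd6 is the one member on the minus strand, at chrM:13552-14070, and its last 14 bases overlap the end of mt-Nd5 (chrM:11742-13565) on the plus strand. The sources used here do not say whether counting used strand, so reads from these overlapping ends cannot be told apart. Without strand, plus-strand RNA anywhere across mt-Nd6 would also be counted for it. Minus-strand RNA across the plus-strand members would likewise be counted for them. Which strand the counts of any member came from was not tested. The other members lie on the plus strand, mt-Rnr1 at chrM:70-1024, mt-Rnr2 at chrM:1094-2675, mt-Nd1 at chrM:2751-3707, mt-Nd2 at chrM:3914-4951, mt-Co1 at chrM:5328-6872, mt-Nd3 at chrM:9459-9806, mt-Nd4 at chrM:10167-11544 and mt-Cytb at chrM:14145-15288, each without introns.

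Both ribosomal RNAs and 2 of the 8 messengers were lower in GR-cKO. The mean GR-cKO level was 73.9% of the control mean for the small-subunit ribosomal RNA mt-Rnr1, 80.2% for the large-subunit RNA mt-Rnr2, 77.6% for the complex IV messenger mt-Co1 and 86.9% for the complex I messenger mt-Nd2. No member was called higher by edgeR or DESeq2, and at an unadjusted p below 0.05 the edgeR test gave 0 higher and 6 lower. The share of all genes at that unadjusted threshold was not taken, so such counts, here and below, have nothing to stand beside. Over all 14386 genes tested, 7.19% were called lower and 7.63% higher (edgeR quasi-likelihood test, adjusted p below 0.05), against 4 and 0 of the 10 members. The members' median log2 fold change was -0.24 and that of all tested genes -0.01. In 6 of the 10 members every GR-cKO library lay below every control library, which held for 14.7% of all tested genes, and 29.9% did not overlap in either direction. In bulk RNA, fewer cells of a type and less RNA per cell cannot be told apart.

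**Figure D1:**
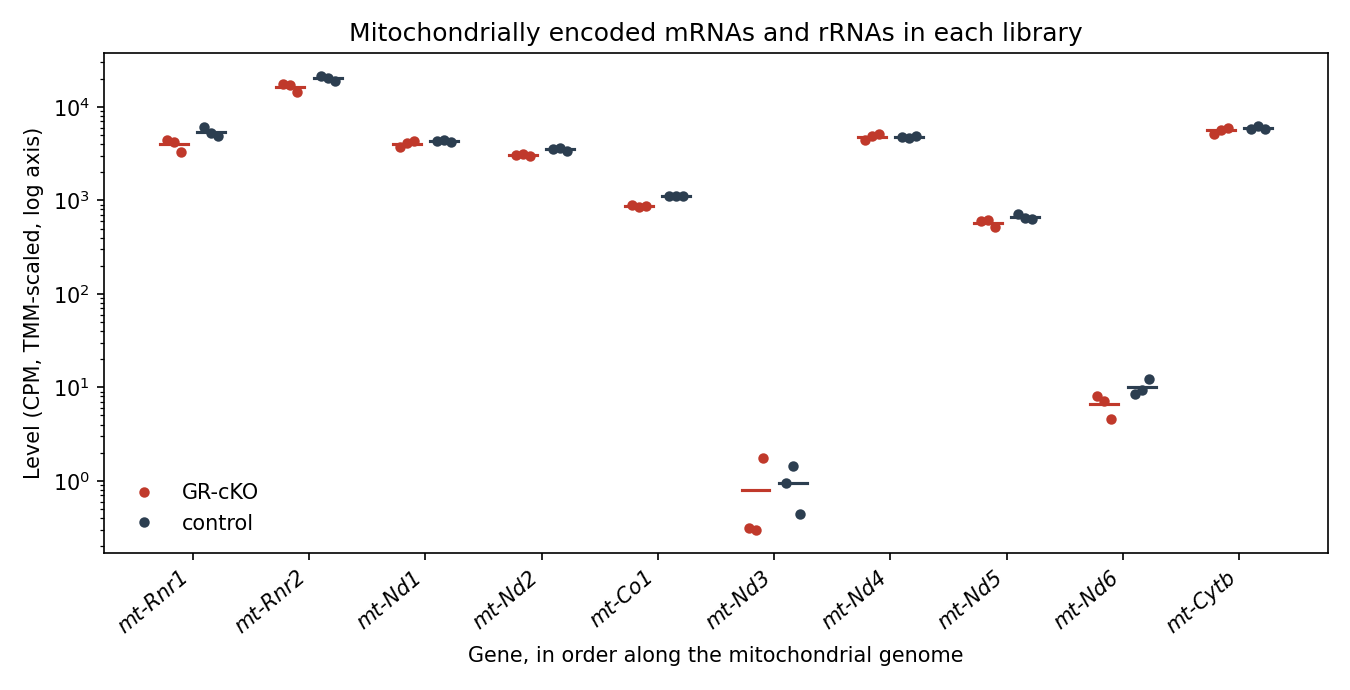
Level of each of the 10 RNAs in every library, in CPM scaled by TMM factors on a log axis, with genes in order along the mitochondrial genome. Points are libraries (GR-cKO in red, left, and control in dark blue, right) and bars are group means. The groups are apart for mt-Rnr1, mt-Rnr2, mt-Nd2, mt-Co1, mt-Nd5 and mt-Nd6 and overlap for mt-Nd1, mt-Nd3, mt-Nd4 and mt-Cytb.

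Both ribosomal RNAs fell. The large-subunit RNA mt-Rnr2 (ENSMUSG00000064339) stood at 17372, 17209 and 14403 CPM in GR-cKO libraries and at 21566, 20462 and 19040 CPM in control libraries. Every GR-cKO library lay below every control library, and GR-cKO replicate 3 was the lowest of the 6. The means were 16328 ± 1669 CPM in GR-cKO and 20356 ± 1266 CPM in control (SD, n = 3 each), which gives -0.32 ± 0.06 on the log2 scale (SE; adjusted p = 0.000547 by edgeR). The small-subunit RNA mt-Rnr1 (ENSMUSG00000064337) stood at 4472, 4237 and 3267 CPM in GR-cKO libraries and at 6090, 5283 and 4834 CPM in control libraries. It showed the same order, with GR-cKO replicate 3 lowest and control replicate 1 highest. Its means were 3992 ± 639 CPM in GR-cKO and 5402 ± 636 CPM in control (n = 3 each), or -0.44 ± 0.09 on the log2 scale (edgeR, adjusted p = 0.000754). This call was lost in DESeq2, where its adjusted p was 0.0649.

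Taken as a share of all gene counts, the ribosomal RNAs made up 2.14%, 2.10% and 1.77% of GR-cKO libraries and 2.76%, 2.61% and 2.44% of control libraries. The 95% Wilson interval of any such share was at most 0.007 percentage points to either side and covers counting error only; libraries of a group spread more widely than that. For each count of mt-Rnr1 there were 3.88, 4.06 and 4.41 counts of mt-Rnr2 in GR-cKO libraries and 3.54, 3.87 and 3.94 in control libraries. These ranges overlapped. The ribosomal RNAs are not known for long tails, and how often runs of A inside them were primed was not tested. The longest run of A is 5 bases in mt-Rnr1 and 7 bases in mt-Rnr2, 315 and 1181 bases before the annotated ends.

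**Figure D2:**
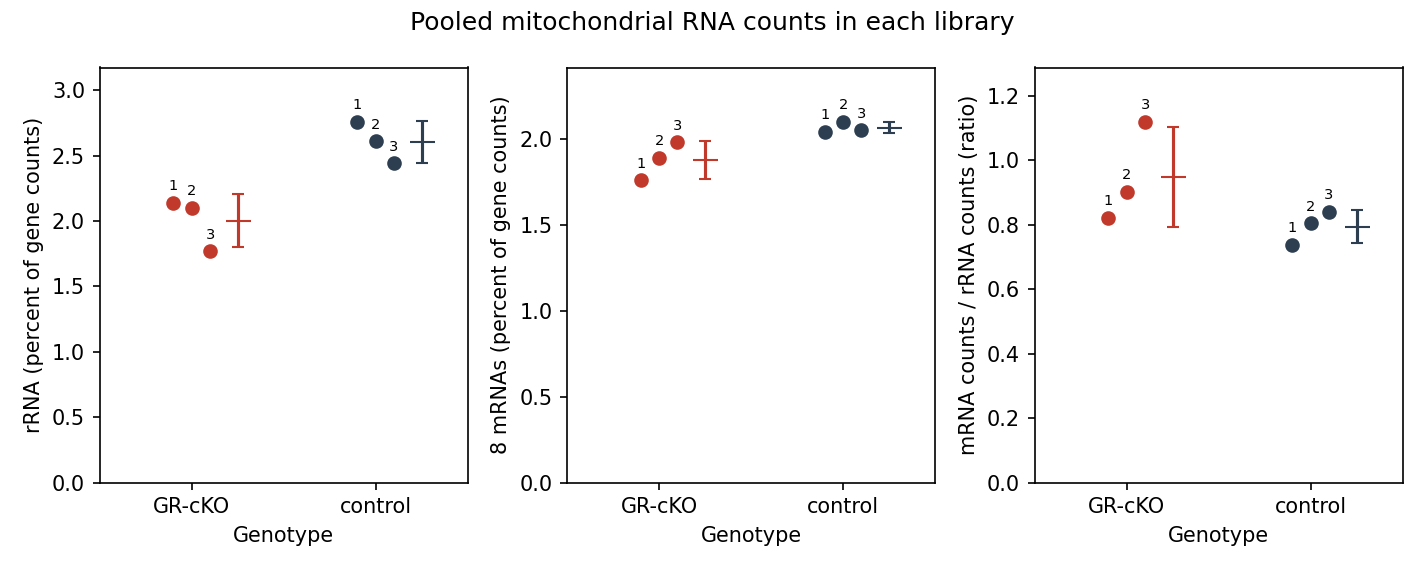
Share of gene counts (percent) taken by both ribosomal RNAs and by the 8 messenger RNAs, and the ratio of messenger to ribosomal counts. Numbered points are libraries with their replicate number, GR-cKO left and control right, and bars give mean ± SD of 3 libraries. The ribosomal share is 1.77% to 2.14% in GR-cKO and 2.44% to 2.76% in control, while the ratio overlaps between the groups.

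The messenger RNA of the catalytic subunit of cytochrome c oxidase also fell. mt-Co1 (ENSMUSG00000064351), which encodes the complex IV subunit where oxygen is reduced, stood at 891, 847 and 862 CPM in GR-cKO libraries and at 1124, 1111 and 1116 CPM in control libraries. Libraries of a group lay close together and the groups were far apart. The means were 867 ± 22.1 CPM in GR-cKO and 1117 ± 6.25 CPM in control (SD, n = 3 each), and the log2 fold change was -0.37 ± 0.06 (edgeR, adjusted p = 5.21e-05). This was the smallest adjusted p of the 10 members.

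Among the complex I messengers, mt-Nd2 fell and the others did not pass. Complex I takes electrons from NADH, and mt-Nd2, mt-Nd4 and mt-Nd5 encode its antiporter-like subunits, which act in proton pumping. mt-Nd2 (ENSMUSG00000064345) stood at 3066, 3141 and 3017 CPM in GR-cKO libraries and at 3561, 3646 and 3405 CPM in control libraries, with no overlap. Its log2 fold change was -0.20 ± 0.05 (edgeR, n = 3 each, adjusted p = 0.00946). Without control replicate 2 the adjusted p was 0.0769, which ends the call.

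mt-Nd5 (ENSMUSG00000064367) stood at 595, 612 and 521 CPM in GR-cKO libraries and at 709, 644 and 635 CPM in control libraries. The groups did not overlap and the log2 fold change, -0.20 ± 0.07, was as large as that of mt-Nd2, but the adjusted p of 0.0502 (edgeR, n = 3 each) missed the threshold of 0.05. It passed in DESeq2 (adjusted p = 0.0349) and with no filter on low counts (0.0248), but not with ERCC scaling, at -0.11 (0.507). Without GR-cKO replicate 3 its log2 fold change was -0.13 (adjusted p = 0.250), and without control replicate 1 it was -0.15 (0.203). mt-Nd4 (ENSMUSG00000064363) stood at 4458, 4921 and 5071 CPM in GR-cKO libraries and at 4819, 4653 and 4871 CPM in control libraries. Here the GR-cKO libraries spanned the control libraries, and the log2 fold change was 0.01 ± 0.06 (edgeR, n = 3 each, adjusted p = 0.935).

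mt-Nd1 (ENSMUSG00000064341), whose protein lies beside the ubiquinone site, stood at 3725, 4090 and 4297 CPM in GR-cKO libraries and at 4330, 4377 and 4196 CPM in control libraries. mt-Cytb (ENSMUSG00000064370), the complex III subunit that holds both b-type haems, stood at 5184, 5724 and 5955 CPM in GR-cKO libraries and at 5868, 6274 and 5809 CPM in control libraries. Both genes had their lowest value in GR-cKO replicate 1, and the groups overlapped through GR-cKO replicate 3. Their log2 fold changes were both -0.09 ± 0.06, with adjusted p = 0.329 for mt-Nd1 and 0.337 for mt-Cytb (edgeR, n = 3 each). Without GR-cKO replicate 1 both were at -0.03. A p above the threshold does not show that the levels were equal.

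The remaining complex I messengers were scarce in the counts. mt-Nd6 (ENSMUSG00000064368), a subunit of the membrane arm, had 179, 143 and 88 counts in GR-cKO libraries and 179, 198 and 247 counts in control libraries. This is 8.09, 7.12 and 4.53 CPM in GR-cKO libraries against 8.58, 9.28 and 12.2 CPM in control libraries. The groups were apart by a narrow margin, and the log2 fold change of -0.60 ± 0.22 did not pass (edgeR, n = 3 each, adjusted p = 0.0702). It passed without GR-cKO replicate 1 (adjusted p = 0.0480) and with no filter on low counts (0.0440), but not in DESeq2 (0.115) or with ERCC scaling (0.160). Without GR-cKO replicate 3 its log2 fold change was -0.39 (adjusted p = 0.278), and without control replicate 3 it was -0.44 (0.280). mt-Nd3 (ENSMUSG00000064360), a small subunit with a loop near the ubiquinone site, had only 7, 6 and 34 counts in GR-cKO libraries and 20, 31 and 9 counts in control libraries. The highest count was in a GR-cKO library and the lowest in another, and the log2 fold change of -0.29 ± 0.69 has an error larger than itself (adjusted p = 0.856).

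**Figure D3:**
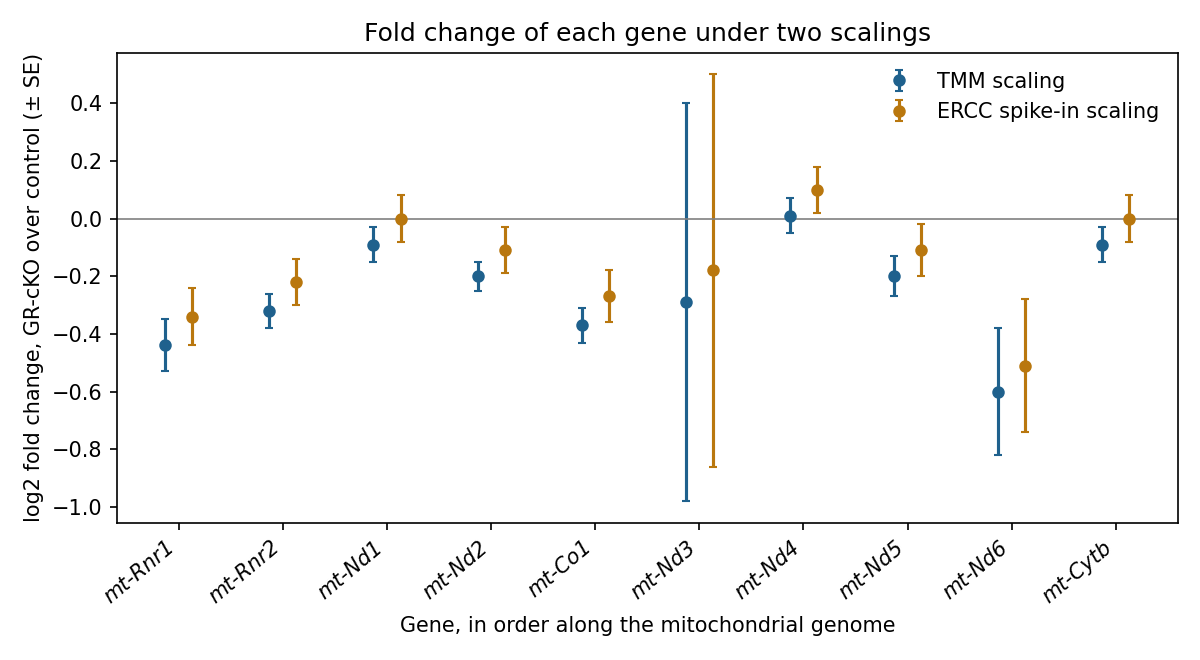
Log2 fold change of each gene, GR-cKO over control, with its standard error, from edgeR with TMM scaling (blue) and with scaling by ERCC spike-ins (orange), genes in order along the mitochondrial genome. The spike-in scaling moves every gene up by about the same step, which brings mt-Nd1 and mt-Cytb to 0.00.

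Scaling by the ERCC spike-in RNAs moved the median log2 fold change of all tested genes to 0.09, and those of the members moved by a like amount. Called lower were then mt-Co1 (log2 fold change -0.27 ± 0.09, adjusted p = 0.0338) and mt-Rnr1 (-0.34 ± 0.10, adjusted p = 0.0185), 2 of 10 members beside 3.63% of all genes in that direction. No member was then called higher, beside 9.42% of all genes. mt-Rnr2 was at -0.22 ± 0.08 with an adjusted p of 0.0602, and mt-Nd2 at -0.11 ± 0.08 with 0.424. mt-Nd1 and mt-Cytb were both at 0.00 ± 0.08, and mt-Nd4 was at 0.10 ± 0.08 with an adjusted p of 0.466. Measured against the spike-ins, mt-Nd1 averaged 4165 scaled CPM in both groups. All spike-in RNAs together made up 1.98% to 2.17% of the counts of GR-cKO libraries and 2.21% to 2.36% of those of control libraries, and the groups did not overlap in it.

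Within the messenger pool, only the parts of mt-Co1 and mt-Nd4 did not overlap between the groups. The 8 messengers together made up 1.76%, 1.89% and 1.98% of gene counts in GR-cKO libraries and 2.04%, 2.10% and 2.05% in control libraries. mt-Cytb took the largest part of them, 29.6% ± 0.633 in GR-cKO and 29.3% ± 0.833 in control (SD, n = 3 each). The part of mt-Co1 was 4.97%, 4.38% and 4.37% in GR-cKO libraries and 5.50%, 5.36% and 5.57% in control libraries, without overlap. The part of mt-Nd4 was 24.9%, 25.4% and 25.7% in GR-cKO libraries and 23.6%, 22.5% and 24.3% in control libraries, also without overlap and in the other direction. The complex I messengers as a whole took 65.9% ± 0.362 in GR-cKO and 65.2% ± 0.743 in control, which overlapped. The parts add up to the whole pool, so a fall in some raises others, and the log2 fold change of mt-Nd4 itself was 0.01. By CPM, 29.9% of all tested genes did not overlap in either direction. These parts were given no test.

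There were 0.821, 0.902 and 1.12 messenger counts for each ribosomal count in GR-cKO libraries and 0.738, 0.805 and 0.840 in control libraries. The ranges overlapped, and the difference of the means, 0.152, was 0.0671 without GR-cKO replicate 3. In GR-cKO replicate 3 messenger counts outnumbered ribosomal counts, which happened in no other library. It had the lowest ribosomal share of the 6 libraries and the highest messenger share of the 3 GR-cKO libraries.

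The order of the levels was nearly the same in both genotypes. Levels of different genes are compared both as CPM and as CPM per kb of gene, since a 3′ tag count is not meant to grow with length. In GR-cKO, CPM ran in the order mt-Rnr2, mt-Cytb, mt-Nd4, mt-Nd1, mt-Rnr1, mt-Nd2, mt-Co1, mt-Nd5, mt-Nd6 and mt-Nd3. Only mt-Nd1 and mt-Rnr1 overlapped as neighbours there. In control, mt-Rnr1 stood between mt-Cytb and mt-Nd4, and its CPM range overlapped that of each. Per kilobase, mt-Rnr2 was first in both groups, at 10321 CPM per kb in GR-cKO and 12867 CPM per kb in control, and mt-Nd3 last, at 2.27 and 2.74 CPM per kb in GR-cKO and control.

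The neighbours of mt-Nd3 were nearly empty too. Of the 5 messengers that are no members, 4 had no count in any library, namely mt-Atp8 of ATP synthase, mt-Nd4l of complex I, and mt-Co2 and mt-Co3 of complex IV. The ATP synthase messenger mt-Atp6 had 3 counts in control replicate 2 and none elsewhere. Every cell that respires uses these genes, so they are only said to be listed at 0, and no fold change is given.

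Chromosome 1 carries a block of annotated unprocessed pseudogenes that copy this stretch of the mitochondrial genome. Each mitochondrially encoded messenger and ribosomal RNA was compared with them in windows of 50 bases. All windows of Gm10925, Gm28437, Gm28661, Gm10222 and Gm28439 occur in mt-Atp6, mt-Co3, mt-Co2, mt-Nd4l and mt-Nd4 without a difference. Of the windows of mt-Nd3, 98.0% occur in Gm28438, and 99.5% or more of those of mt-Co2, mt-Atp6 and mt-Co3 occur in their copies. For mt-Nd1, mt-Nd2, mt-Nd5, mt-Nd6, mt-Cytb and both ribosomal RNAs the share in the chromosome 1 pseudogenes was 0%. Elsewhere in the nuclear transcripts, 8.19% of the windows of mt-Nd2, 7.61% of those of mt-Nd5 and 1.04% of those of mt-Rnr2 were found. A read that lies wholly within shared bases cannot be placed on one copy, while one that reaches past them may be. The sources used here do not say how reads with several matches were treated. mt-Atp8 shares no window with an annotated nuclear transcript and is listed at 0. It overlaps the start of mt-Atp6 by 43 bases on the same strand, and mt-Nd4l overlaps mt-Nd4 by 7 bases on the same strand. Where a 3′ tag of an RNA that spans both genes of such a pair was counted was not tested. The bases between the pseudogenes were not searched, since no genome sequence was used.

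For mt-Co1 and mt-Nd4 the shared part is not the same. Gm29216 copies bases 1054 to 1545 of mt-Co1, so all windows in the last 200 bases of mt-Co1 are shared. Over its whole length 28.7% of the windows of mt-Co1 occur in Gm29216 and 27.5% in another pseudogene, Gm13340, and 51.1% occur in some annotated nuclear transcript. Gm28439 copies bases 1 to 876 of mt-Nd4, so none of the windows in the last 200 bases of mt-Nd4 is shared. mt-Co1 had 16744 to 23716 counts and mt-Nd4 98465 to 100509 counts in a library. The longest run of A in mt-Co1 is 7 bases and lies 750 bases before its end, in the part that Gm29216 does not copy. Whether it lies in the windows shared with Gm13340 is not given. Which part of mt-Co1 its counted reads came from was not tested.

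**Figure D4:**
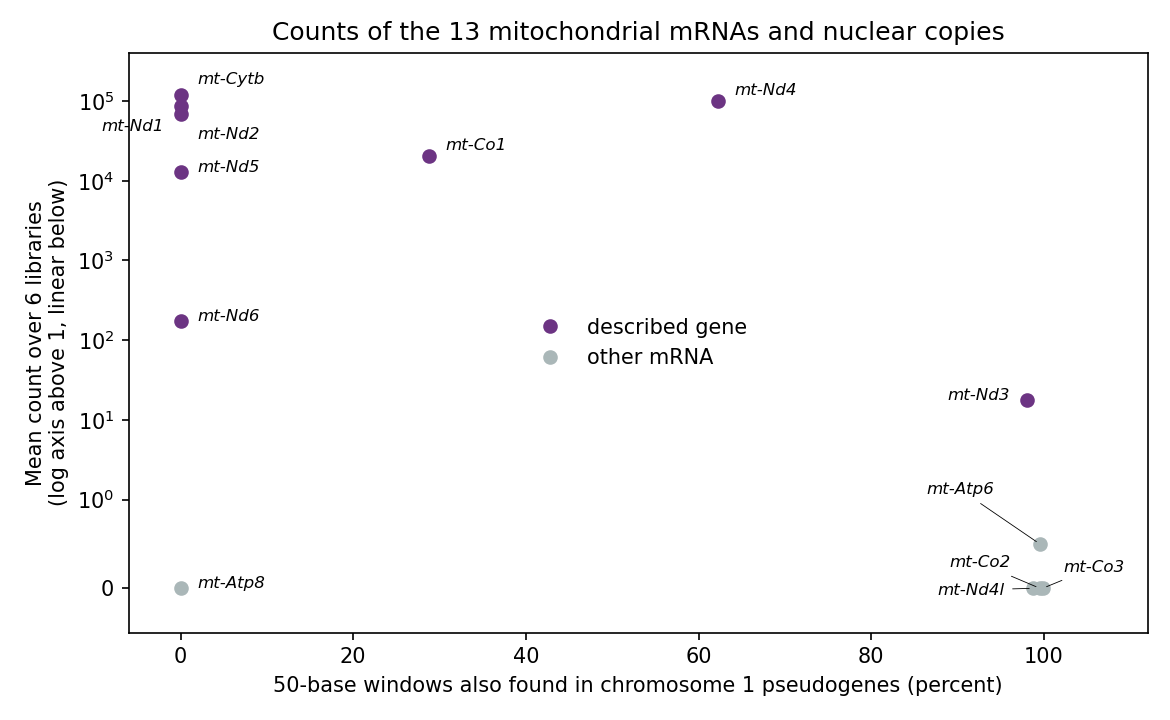
Mean count over all 6 libraries of each of the 13 mitochondrially encoded messenger RNAs (log axis above 1, linear below) against the percent of its 50-base windows that also occur in the pseudogenes on chromosome 1. Purple points are the 8 described messengers and grey points the other 5. The genes with nearly all windows shared, mt-Nd3 among them, have few or no counts. mt-Atp8, which overlaps mt-Atp6 by 43 bases on the same strand, shares no window and has no count.

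Beside mt-Nd3, the pseudogene Gm28438 (chr1:24612775-24613119, minus strand) was the one copy with more than 5 counts in any library. It had 1066, 752 and 1600 counts in GR-cKO libraries and 1402, 1606 and 1256 counts in control libraries, while each of the other 6 pseudogenes had 0 to 5 counts in a library. Its 345 bases differ from mt-Nd3 at 1 position, counted from 1 at the first base of the gene, T3C, where mt-Nd3 is given first. The first 40 bases of both are shown because they hold the only difference within those 345 bases, with the differing base in capitals.

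mt-Nd3: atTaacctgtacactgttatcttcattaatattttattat
Gm28438: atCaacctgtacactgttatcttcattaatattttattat

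Reads that lie wholly within the rest of these 345 bases cannot be told apart, so the split of counts between mt-Nd3 and Gm28438 is uncertain. Gm28438 stood at 56.0 ± 23.5 CPM in GR-cKO and 68.2 ± 6.66 CPM in control (SD, n = 3 each) and did not pass (log2 fold change -0.29 ± 0.17, edgeR, adjusted p = 0.303). With its counts added to mt-Nd3, an alternative chosen after seeing the data, mt-Nd3 did not pass either (adjusted p = 0.312). GR-cKO replicate 3 had the most counts of mt-Nd3 of all libraries and nearly the most of Gm28438.

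Transfer RNAs lie between the members and are cut out of the same precursors. They carry no poly(A) tail when mature, and which RNAs their counted tags came from was not tested. Of 22 transfer RNA genes, 8 were listed at 0 in all libraries, including all 4 that lie wholly between mt-Co1 and mt-Nd4 and mt-Ts1, which overlaps the end of mt-Co1 by 3 bases, and 13 could be tested. Of these 13, 7 were lower in GR-cKO and none higher, beside 7.19% of all genes called lower. DESeq2 also called 7 lower and 0 higher, and at an unadjusted p below 0.05 edgeR gave 7 lower and 0 higher. The list was taken from the annotation after the counts had been seen. No tested transfer RNA averaged over 46.9 CPM in control, which is below every member but mt-Nd6 and mt-Nd3.

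mt-Tm, the methionine transfer RNA just before mt-Nd2, stood at 28.9, 27.1 and 20.1 CPM in GR-cKO libraries and at 57.2, 45.3 and 38.2 CPM in control libraries. Its log2 fold change was -0.88 ± 0.14 (edgeR, n = 3 each, adjusted p = 5.28e-05). mt-Tl1, the leucine transfer RNA between mt-Rnr2 and mt-Nd1, was at 9.58, 11.5 and 6.59 CPM in GR-cKO libraries and 26.4, 16.4 and 18.0 CPM in control libraries, with a log2 fold change of -1.14 ± 0.19 (adjusted p = 0.000157). The groups were apart in both. mt-Nd1, which follows mt-Tl1, did not pass.

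Of 4 tested transfer RNAs coded on the minus strand, 3 were lower in GR-cKO, as were 4 of 9 coded on the plus strand. The minus-strand ones were mt-Tp, mt-Ta and mt-Tq, while mt-Tc on that strand did not pass (log2 fold change -0.43, edgeR adjusted p = 0.723). mt-Tp, for proline, stood at 12.8, 12.4 and 7.11 CPM in GR-cKO libraries and at 41.9, 26.2 and 27.2 CPM in control libraries, 2.94-fold lower in GR-cKO (adjusted p = 1.94e-06). mt-Ta, for alanine, was at 13.5, 7.67 and 4.84 CPM in GR-cKO libraries and at 34.4, 21.6 and 20.8 CPM in control libraries, 2.93-fold lower (adjusted p = 4.94e-05). Neither group of libraries overlapped the other in these genes. mt-Nd6, the member coded on the minus strand, did not pass. The lowest log2 fold change of the tested transfer RNAs was on the plus strand, in mt-Tf, at -2.15 ± 0.70 (edgeR, adjusted p = 0.0388). It had only 4 to 42 counts in a library, and its groups overlapped. Above 0 was only mt-Tw, also on the plus strand, at 0.67 ± 0.64, which did not pass (adjusted p = 0.576). The strand setting of the counting is not given, so which strand the counted RNA came from is unknown. The differences between strands were not tested.

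**Figure D5:**
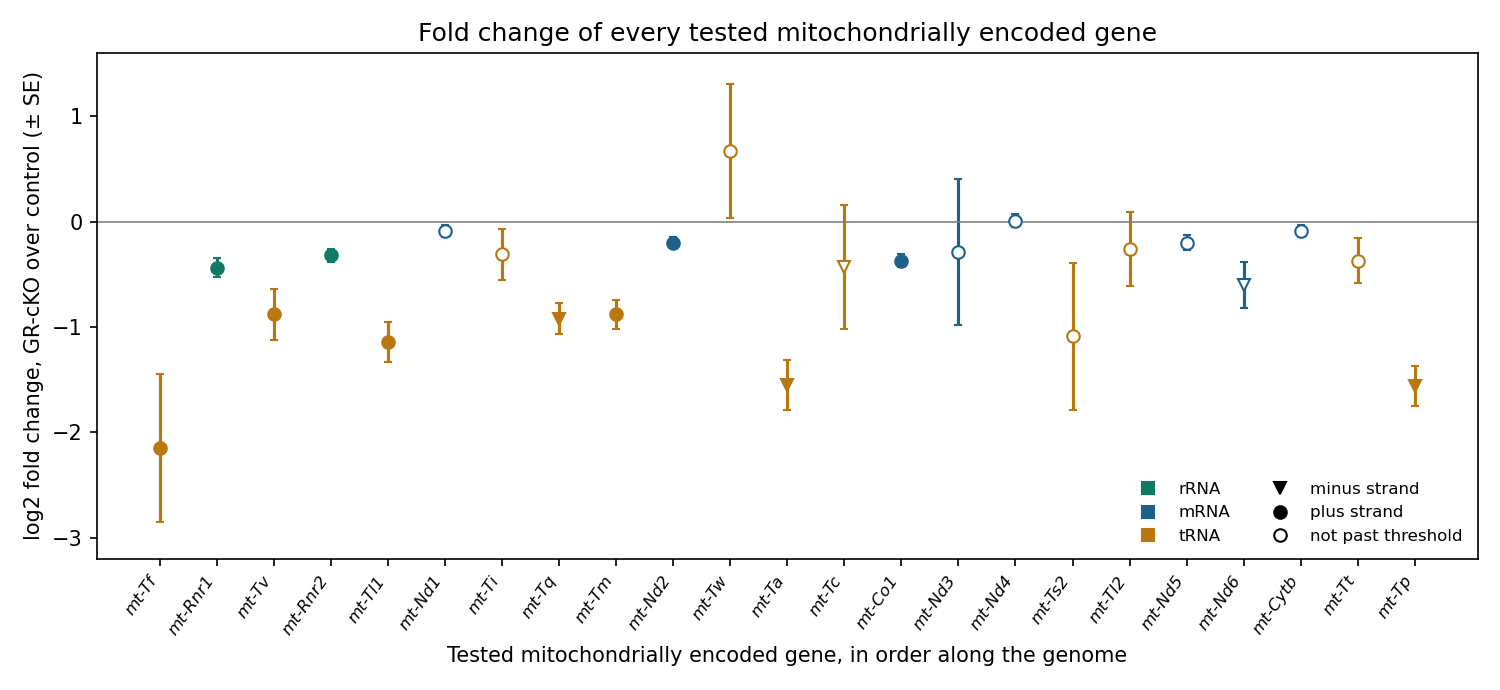
Log2 fold change, GR-cKO over control, with its standard error (edgeR) for the 23 tested mitochondrially encoded genes in order along the genome. Colours give the kind of RNA, triangles mark the minus strand, and open symbols did not pass the threshold. The transfer RNAs mt-Tp and mt-Ta on the minus strand lie near -1.55, below every messenger and ribosomal RNA. mt-Tf on the plus strand lies lowest, at -2.15, with few counts.

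Nuclear genes that make or handle these RNAs are given beside the 7.63% of all tested genes called higher and the 7.19% called lower. Of 21 tested genes of mitochondrial DNA transcription and maintenance, 1 was higher and none lower, with a median log2 fold change of -0.02. The riser was Lonp1, a matrix protease known from human cells to degrade the packaging factor TFAM, at 152 ± 8.41 CPM in GR-cKO and 97.2 ± 4.89 CPM in control (n = 3 each, edgeR adjusted p = 1.29e-06). The mitochondrial RNA polymerase gene Polrmt stood at 13.1 ± 1.61 CPM in GR-cKO and 12.6 ± 0.311 CPM in control, and Tfam at 30.3 ± 2.67 CPM in GR-cKO and 29.9 ± 4.37 CPM in control. Both were named after their values were seen, as the best-known members, and neither passed (adjusted p = 0.894 and 0.945).

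Of 44 rows named for genes of mitochondrial RNA processing, stability and modification, 1 was higher and 1 lower, with a median of 0.01. Lrpprc, which with Slirp keeps mitochondrial messengers stable, was at 79.5, 65.8 and 65.1 CPM in GR-cKO libraries and 47.3, 53.3 and 62.5 CPM in control libraries (log2 fold change 0.37 ± 0.10, adjusted p = 0.0166). Its groups did not overlap, but control replicate 3 lay close to the lowest GR-cKO library. The row named Trmt61b (ENSMUSG00000085492), which GENCODE M21 types as an antisense and not as a protein-coding gene, was at 4.97 ± 0.398 CPM in GR-cKO and 7.82 ± 1.43 CPM in control (adjusted p = 0.0491), a call lost in DESeq2 (0.0716) and with ERCC scaling (0.112). Without GR-cKO replicate 1 or without control replicate 1, neither gene was called. Of 19 translation and assembly factors none passed in edgeR or DESeq2, with a median of 0.06, and 3 were higher and 0 lower at an unadjusted p below 0.05. Those with the smallest p were Cmc1 at 25.7 ± 1.3 CPM in GR-cKO and 20.6 ± 1.71 CPM in control and Uqcc3 at 76.5 ± 3.06 CPM in GR-cKO and 67.1 ± 1.5 CPM in control.

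Nuclear genes for subunits of the same complexes are given beside the 14.8% of all tested genes called in either direction. Of 37 nuclear complex I genes, 1 was called higher and none lower, with a median log2 fold change of 0.04. That gene was Ndufv3, an accessory subunit, at 228 ± 3.2 CPM in GR-cKO and 177 ± 3.52 CPM in control (adjusted p = 0.000285). Of 9 nuclear complex III genes none passed in edgeR or DESeq2 (median 0.09), and 1 was higher and 0 lower at an unadjusted p below 0.05. Uqcrc2 and Uqcrh had the smallest p, with Uqcrc2 at 337 ± 33 CPM in GR-cKO and 299 ± 11.7 CPM in control and Uqcrh at 1540 ± 29.9 CPM in GR-cKO and 1443 ± 13.4 CPM in control. Without GR-cKO replicate 1, 1 of the 9 was called higher. Of 15 nuclear complex IV genes 1 was higher and none lower (median 0.05). It was Cox4i2, an isoform of the Cox4 subunit known to be induced by low oxygen, at 7.12 ± 1.91 CPM in GR-cKO and 2.28 ± 0.182 CPM in control (adjusted p = 0.000115). The difference between the nuclear and the mitochondrial genes was not tested.

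Markers of several cell types also differed between the groups. Of the 13 cardiomyocyte markers 10 were higher in GR-cKO and 1 lower, beside 7.63% and 7.19% of all genes. The lower one was Pln, named after its value was seen, whose call was lost with ERCC scaling (adjusted p = 0.0732). Actc1, cardiac actin, was at 9800 ± 207 CPM in GR-cKO and 6343 ± 98.2 CPM in control. Of 10 fibroblast markers 4 were higher and 1 lower, of 10 endothelial markers 7 higher and 2 lower, of 8 smooth muscle and pericyte markers 5 higher and 0 lower, and of 5 tested leukocyte markers 2 higher and 0 lower. The lower ones were Dcn, at 427 ± 28.9 CPM in GR-cKO and 550 ± 11 CPM in control, Emcn, at 159 ± 5.13 CPM in GR-cKO and 247 ± 5.98 CPM in control, and Npr3, at 33 ± 3.4 CPM in GR-cKO and 49.9 ± 1.97 CPM in control. Dcn and Npr3 were named after their values were seen. Col1a1 and Col1a2 make up most of the fibroblast sum and Acta2 most of the smooth muscle and pericyte sum. Summed levels of 10 fibroblast markers were 4758 to 4882 CPM in GR-cKO and 3660 to 3855 CPM in control, those of 10 endothelial markers 1322 to 1416 CPM in GR-cKO and 1083 to 1120 CPM in control, and those of 8 smooth muscle and pericyte markers 4413 to 4636 CPM in GR-cKO and 3725 to 3837 CPM in control. The 9 leukocyte markers summed to 35.2 to 55.5 CPM in GR-cKO and 13.7 to 17.9 CPM in control. No marker was at 0 in all libraries. Their part in the lower mitochondrial RNA was not tested.

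The summed level of the 8 messengers was followed most closely over the 6 libraries by the genes Tprgl, Nap1l1, Ccng1, Actr1a and Fem1a, out of 3364 genes outside the mitochondrial genome with at least 50 CPM. The measure was the root mean square distance of log2 CPM after centring, which was 0.0181 for Tprgl and 0.0265 for Fem1a. Tprgl stood at 132, 139 and 146 CPM in GR-cKO libraries and at 151, 150 and 150 CPM in control libraries. None of the 5 passed the test.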

How the data were processed

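Per the labels' protocols, QuantSeq 3′ libraries were made from 100 ng of RNA. The authors deposited raw counts per gene, 1 table per library. Tools named in the submitters' processing notes are cutadapt 1.16, STAR 2.5.4a and featureCounts 1.6.2, with build GRCm38. The sources used here give neither the strand setting nor the treatment of reads with several matches. Of 52550 gene rows, 52403 matched GENCODE M21. Spike-in rows stayed out of library sizes and tests. Replicates were compared pairwise and exceeded sampling noise (median chi-square 2.49 to 3.71 per gene), so none was merged.

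GR-cKO was tested against control over all 14386 genes kept by edgeR's default filter, with edgeR 4.0.16 in R 4.3.3 (quasi-likelihood, TMM, Benjamini-Hochberg, threshold 0.05). Levels are CPM scaled by TMM factors, and a count of 0 allows up to 0.133 to 0.155 CPM (3 counts, counting error only). Each standard error is the size of the log2 fold change over the root of F. The test was tried on simulated counts. Alternatives were DESeq2 1.42.0, other scalings, no filter, a replicate block and leaving out each library.

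The members and the gene lists were chosen with earlier results of these data known. Named genes were all members, for each list up to 4 called genes by smallest p, or 2 as values where none passed, and the 5 genes nearest in pattern. Sequences are from GENCODE M21 transcripts. Of the marker genes so chosen only Actc1 and Emcn are printed with their values. Sums over members were given no p.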

Additional observations from a re-analysis of the deposited data

How the results depend on the processing

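The direction of mt-Co1, mt-Rnr1, mt-Rnr2, mt-Nd2, mt-Nd5 and mt-Nd6 was the same under all alternatives run, and mt-Co1 passed the test in each. Members called numbered 4 in the reported fit, 2 with ERCC scaling, and 3 to 5 with 1 library left out. The replicate block gave 6 called members, mt-Nd5 and mt-Nd6 added. Of 14386 genes tested in each, 2132 were called in the reported fit, 1877 with ERCC scaling and 2353 with the replicate block. Same-numbered libraries had deviations correlated at 0.00, 0.037 and 0.02. The value of 0.037, for replicate 2 of both groups, was the highest of all pairs. GR-cKO replicate 1 correlated best with control replicate 3, at 0.032. Values this small do not show whether same-numbered libraries share more than a number. With ERCC scaling mt-Nd1 and mt-Cytb stood at 0.00, with no difference in either direction. With 1 library left out mt-Nd3 ran from -1.61 to 0.15, mt-Nd4 from -0.02 to 0.07, mt-Nd5 from -0.25 to -0.13, mt-Nd6 from -0.78 to -0.39, and mt-Nd1 and mt-Cytb each from -0.13 to -0.03. Without control replicate 2, 3 members were called. All genes called fell to between 1572 and 1879, of 14802 to 14861 tested, with 1 library left out, where fewer samples enter.

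Called transfer RNAs were 5 to 7 with 1 library left out. Called transcription and maintenance genes were 1, against 2 with no filter, 3 with the replicate block and 1 to 2 with 1 library left out. Called RNA processing genes were 2, against 1 in DESeq2, with RLE factors, with no filter and with ERCC scaling, and 0 to 2 with 1 library left out, 0 without control replicate 1 or GR-cKO replicate 1. Translation factors had 0, and 1 with ERCC scaling. Nuclear complex I genes had 1, against 2 in DESeq2, with RLE factors, ERCC scaling or the replicate block, and 1 to 2 with 1 library left out. Nuclear complex III genes had 0, and 0 to 1 with 1 library left out. The difference in ribosomal share, -0.599 percentage points, ran from -0.679 to -0.482 with 1 library left out, and that of the messenger share, -0.186, from -0.236 to -0.126. The mRNA to rRNA ratio differed by 0.152, and by 0.0671 to 0.215 with 1 library left out, lowest without GR-cKO replicate 3. The mt-Rnr1 to mt-Rnr2 ratio differed by -0.0213, and by -0.0283 to -0.0125, smallest without control replicate 1. The unknown treatment of multiply placed reads bears on mt-Nd3, mt-Nd4 and mt-Co1 and, for a smaller share of their windows, on mt-Nd2, mt-Nd5 and mt-Rnr2. The unknown strand setting bears on all members and on the transfer RNAs, since RNA of the opposite strand may have been counted for them. Among members, mt-Nd5 and mt-Nd6 overlap each other on opposite strands, and mt-Co1 overlaps mt-Ts1. mt-Nd3 is limited by its few counts, whose split from Gm28438 is uncertain.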
